A study of Mus musculus with 34 samples.

Results

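The genes described here are the carbohydrate-response factor ChREBP, encoded by Mlxipl, and 9 genes of fatty acid synthesis and chain modification: Mid1ip1, Thrsp, Acaca, Acacb, Fasn, Scd1, Scd2, Elovl5 and Tecr. They were read on mouse Affymetrix arrays by every probe set that the platform annotation assigns to those symbols, 16 of the 22690 probe sets on each array and 10 of the 12394 genes that the annotation names. The genes were selected on the knockout minus wild-type differences of these same arrays in muscle, where Mlxipl had been seen higher in tibialis, and Mid1ip1 and Tecr in gastrocnemius. The differences in knockout muscle are therefore given as a description, with no test. Where a gene had several probe sets, the one with the highest mean log2 value over all 34 arrays is called the leading probe set.

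The study compared mice lacking muscle glycogen synthase (KO, the MGSKO of the labels), and mice of the GSL30 line overexpressing it, with wild-type (WT) mice. The 34 arrays formed 8 groups: KO and WT anterior tibialis at 3 months (4 and 4 arrays), KO and WT medial gastrocnemius at 3 months (3 and 5), GSL30 and WT medial gastrocnemius at 8 months (5 and 5), and KO and WT liver at 3 months (4 and 4). The tibialis labels give a C57BL6/129SV strain, and the labels used here do not state the strain of the other groups, the knockout allele, the promoter of the transgene or whether the arrays of a group are of different animals. Muscle targets were made from about 5 µg of total RNA and liver targets from about 10 µg. The brighter Gys1 probe set, for muscle glycogen synthase, read 34.2 to 72.5 in KO tibialis against 8184 to 9958 in WT tibialis, 58.1 to 165 in KO gastrocnemius against 3955 to 6378 in WT gastrocnemius, and 7896 to 10404 in GSL30 gastrocnemius against 5840 to 7185 in WT gastrocnemius at 8 months. Where that probe set lies relative to the disrupted part of the gene, or to the transgene, was not given.

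In textbook terms, fatty acid synthesis starts from cytosolic acetyl-CoA, which the acetyl-CoA carboxylases turn into malonyl-CoA and fatty acid synthase extends to palmitate. Desaturases and the endoplasmic reticulum elongation system then shape the chain. ChREBP is a transcription factor that responds to sugar phosphates, pairs with Mlx and binds carbohydrate response elements built from paired E-box-like motifs in lipogenic and glycolytic genes. In liver and adipose tissue the pathway stores surplus carbohydrate as fat, whereas in muscle malonyl-CoA is best known as the inhibitor of fatty acid entry into mitochondria.

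Values are array intensities on the linear scale as deposited. Each array had been scaled to the same trimmed mean, 1000.34 to 1000.49 after the lowest and highest 2% of probe sets were dropped. Every difference and fold is on the log2(value + 50) scale, mutant minus WT or muscle minus liver, with the standard error (SE) from limma. A probe set was called when its Benjamini-Hochberg adjusted p over the 13576 probe sets tested was under 0.05. Intensities of different probe sets were not set against each other.

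The gastrocnemius arrays at 3 months held liver transcripts in unequal amounts. The level was read as the median over 471 probe sets bright in WT liver and dim in WT tibialis, in percent of WT liver. It was 6.79%, 2.34% and 1.43% in the KO gastrocnemius arrays, against 16.19%, 23.95%, 4.23%, 25.46% and 1.53% in the WT gastrocnemius arrays. At 8 months it was 0.05% to 0.52% in GSL30 and 0.21% to 1.37% in WT gastrocnemius. WT gastrocnemius array 2 at 3 months also stood apart in its summed intensity of 8 skeletal muscle markers, 1464473 against 313207 to 445263 in the other 4 WT arrays. Muscle markers summed to 978 to 2818 in KO liver and 790 to 1100 in WT liver. No marker probe set of the 6 cell types read was at 0 on all arrays of a group. In whole tissue, fewer cells of a type and less RNA per cell cannot be told apart.

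Promoter windows of RefSeq, from 250 bases before to 50 bases after a start site on build GRCm38.p6, were matched by symbol for 8 of the 10 genes. Mlxipl had 2 windows, and Scd1 and Scd2 were not matched. The E-box CACGTG, which reads the same on both strands, stood in 1 Mlxipl window and in the Elovl5 window, thus in 2 of 8 genes (25.0%), and in 2187 of 27025 genes with a window (8.1%). A match describes these letters and not a binding site. The windows of the 2 genes that hold the motif are shown with those of Mid1ip1 and Tecr, the members that were higher together with Mlxipl in KO muscle, each 5′ to 3′ on the strand of the gene, with the E-box in capitals. They are Mlxipl at chr5:135089640-135089939 (+), with the E-box starting 98 bases before the start site, Elovl5 at chr9:77917115-77917414 (+), with the E-box starting 161 bases before it, Mid1ip1 at chrX:10717115-10717414 (+) and Tecr at chr8:83594442-83594741 (-).
Mlxipl: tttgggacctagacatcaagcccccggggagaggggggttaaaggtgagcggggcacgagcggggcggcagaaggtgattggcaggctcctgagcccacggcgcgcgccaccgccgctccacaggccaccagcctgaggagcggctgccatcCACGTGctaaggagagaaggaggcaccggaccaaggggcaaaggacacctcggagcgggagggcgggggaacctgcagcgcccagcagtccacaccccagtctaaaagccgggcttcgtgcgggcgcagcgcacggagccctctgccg
Elovl5: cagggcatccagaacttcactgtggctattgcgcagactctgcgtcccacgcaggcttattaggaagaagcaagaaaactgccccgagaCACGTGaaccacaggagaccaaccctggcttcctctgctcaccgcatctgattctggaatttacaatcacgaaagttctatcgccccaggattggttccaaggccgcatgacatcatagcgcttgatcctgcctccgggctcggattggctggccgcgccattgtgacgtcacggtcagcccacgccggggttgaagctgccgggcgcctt
Mid1ip1: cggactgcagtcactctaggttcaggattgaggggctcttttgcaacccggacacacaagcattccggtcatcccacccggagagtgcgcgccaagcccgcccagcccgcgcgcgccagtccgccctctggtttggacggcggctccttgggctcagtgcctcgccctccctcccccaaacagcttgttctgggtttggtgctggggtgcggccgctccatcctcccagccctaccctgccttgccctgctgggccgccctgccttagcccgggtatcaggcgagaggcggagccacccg
Tecr: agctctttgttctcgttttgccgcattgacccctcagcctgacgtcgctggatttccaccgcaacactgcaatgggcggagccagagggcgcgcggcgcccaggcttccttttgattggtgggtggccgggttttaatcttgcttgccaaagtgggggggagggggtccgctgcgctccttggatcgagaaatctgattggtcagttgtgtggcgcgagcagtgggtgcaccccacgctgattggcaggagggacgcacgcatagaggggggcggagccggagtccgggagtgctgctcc

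Mlxipl, with 1 probe set, was higher in KO than in WT muscle, and its KO and WT liver groups overlapped. It read 4361, 5658, 4756 and 4923 in KO tibialis, against 2297, 2636, 2413 and 2338 in WT tibialis. The lowest KO array lay well above the highest WT array, with a log2 difference of 1.01 (SE 0.11). KO gastrocnemius read 3350, 3215 and 3311, against 2609, 1320, 2200, 2497 and 2721 in WT gastrocnemius at 3 months. The groups did not overlap, and the log2 difference of 0.57 (SE 0.23) was 0.39 without WT array 2, the array that stood apart.

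In the other comparisons Mlxipl did not separate the groups. GSL30 gastrocnemius read 2548, 2267, 2049, 1909 and 2342, against 2938, 2182, 2222, 1913 and 2204 in WT gastrocnemius at 8 months (log2 difference -0.04, SE 0.13, adjusted p = 0.899). KO liver read 4978, 4006, 3580 and 4146, against 4360, 3596, 5202 and 3602 in WT liver (log2 difference 0.00, SE 0.15, adjusted p = 0.998). The KO tibialis values overlapped those of the 8 liver arrays, while every WT tibialis array lay below all of them. The difference of the KO effects, liver minus the mean of both muscles, was -0.78 (SE 0.21, adjusted p = 0.103), and that of gastrocnemius minus tibialis was -0.44 (SE 0.26, adjusted p = 0.563). Both contrasts contain the knockout muscle effects that chose the list, as does every difference of effects given here, so none is independent evidence.

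**Figure D1:**
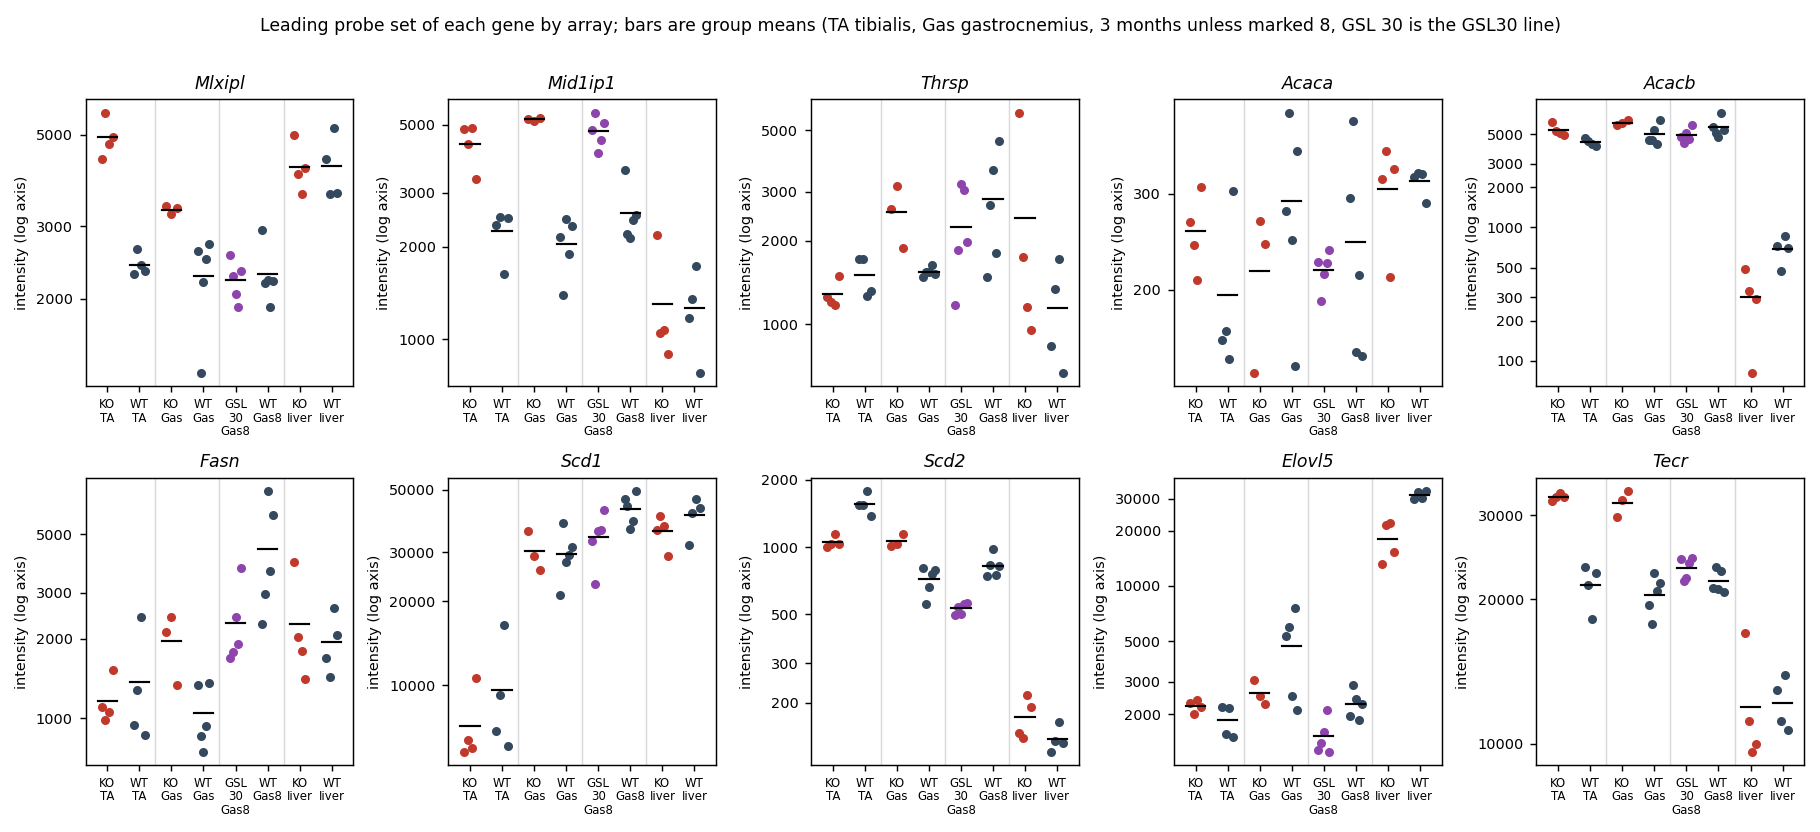
Intensity (log axis) of the leading probe set of each of the 10 genes, 1 point an array and a bar at the group mean, for KO (red), GSL30 (purple) and WT (dark) groups of tibialis, gastrocnemius and liver. Mlxipl, Mid1ip1 and Tecr lie higher in KO than in WT muscle with no overlap, whereas the 4 KO and 4 WT liver arrays of the same genes overlap.

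Mid1ip1 encodes a small protein that promotes the assembly of acetyl-CoA carboxylase into active filaments. Its single probe set was higher in all 3 mutant muscles and in none of the liver comparisons. It read 4823, 4332, 4864 and 3318 in KO tibialis, against 2365, 2497, 1635 and 2491 in WT tibialis (log2 difference 0.94, SE 0.18). KO gastrocnemius read 5204, 5140 and 5239, against 2151, 1397, 2467, 1895 and 2337 in WT gastrocnemius at 3 months (log2 difference 1.35, SE 0.19). In both muscles every KO array exceeded every WT array, and without WT gastrocnemius array 2 the difference was 1.22.

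GSL30 gastrocnemius read 4803, 5473, 4045, 4444 and 5048 for Mid1ip1, against 3565, 2210, 2135, 2452 and 2547 in WT gastrocnemius at 8 months. All 5 GSL30 arrays lay above all 5 WT arrays, and Mid1ip1 rose by 0.89 (SE 0.15, 1.85-fold, adjusted p = 0.0106). The call held in each of the 10 fits that left out an array. It was lost with the mean adipocyte marker level as a covariate (0.86, adjusted p = 0.452), with the mean hepatocyte marker level (0.83, adjusted p = 0.142) and without the 2 arrays of highest liver level (0.82, adjusted p = 0.0591). The difference itself stayed at 0.82 to 0.86 in these fits, beside 0.89 as reported. Why the call was lost was not tested. The liver groups overlapped, with 2193, 1049, 1077 and 900 in KO and 1177, 1357, 1740 and 777 in WT (log2 difference 0.01, SE 0.29, adjusted p = 0.994). KO and GSL30 effects in gastrocnemius differed by -0.46 (GSL30 minus KO, SE 0.24, adjusted p = 0.324).

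Thrsp, the Spot 14 gene, encodes the paralog of that protein and follows lipogenic state in liver and fat. Its leading probe set read 2592, 3135 and 1885 in KO gastrocnemius, against 1480, 1548, 1542, 1638 and 1521 in WT gastrocnemius at 3 months. The groups did not overlap (log2 difference 0.67, SE 0.17), whereas in tibialis KO arrays at 1175 to 1491 overlapped WT arrays at 1269 to 1723 (-0.22, SE 0.14). In liver, KO array 1 read 5782 and the other KO arrays 958 to 1741, against 667 to 1721 in WT, and the difference of 0.75 (SE 0.50, adjusted p = 0.731) was 0.21 without that array. The GSL30 arrays at 1173 to 3199 overlapped the WT arrays at 1480 to 4556 (-0.29, SE 0.33, adjusted p = 0.636). The second probe set overlapped between the groups in all 4 mutant comparisons, with 0.32 (SE 0.16) in KO gastrocnemius and 0.89 (SE 0.39, adjusted p = 0.584) in KO liver, where it was 0.46 without KO array 1.

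The acetyl-CoA carboxylases make malonyl-CoA. Acaca, the isoform of fatty acid synthesis, was read by a dim probe set, at the 39.7 percentile of mean brightness. It read 141 to 267 in KO and 145 to 423 in WT gastrocnemius at 3 months, and 211 to 359 in KO and 288 to 328 in WT liver. In the comparisons where the probe set was too dim to be tested, it read 209 to 309 in KO and 149 to 303 in WT tibialis, and 190.5 to 237 in GSL30 and 151 to 408 in WT gastrocnemius at 8 months. All 4 pairs of groups overlapped.

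Acacb, the isoform of the mitochondrial surface that is abundant in muscle, read 6148, 5267, 5081 and 4907 in KO tibialis, against 4666, 4440, 4229 and 4054 in WT tibialis. These groups did not overlap, although the difference was small (0.29, SE 0.11). KO gastrocnemius read 5867, 6121 and 6353, against 4534, 4518, 5352, 4222 and 6367 in WT, where the groups overlapped (0.30, SE 0.16). In liver the probe set read 492, 334, 80.7 and 291 in KO, against 722, 474, 859 and 697 in WT. KO array 1 lay above the lowest WT array, and the difference of -1.22 (SE 0.37, adjusted p = 0.430) did not pass the threshold in the liver fit, but did when all 34 arrays shared 1 estimate of the spread (adjusted p = 0.0232). It was -0.81 without KO array 3. The KO effect in liver differed from that in both muscles by -1.52 (SE 0.33, adjusted p = 0.0329), a call kept in 22 of 33 alternative fits and in 16 of the 24 that left out an array.

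Fasn encodes the multifunctional synthase that builds palmitate. It read 2121, 2422 and 1341 in KO gastrocnemius, against 1331, 856, 743, 932 and 1363 in WT gastrocnemius at 3 months (0.87, SE 0.26), and the lowest KO array lay within the WT range. GSL30 gastrocnemius read 1696, 1782, 2419, 1913 and 3726, against 2288, 2953, 7287, 3633 and 5920 in WT gastrocnemius at 8 months (-0.86, SE 0.31, adjusted p = 0.134). The groups overlapped in part, with 4 of 5 GSL30 arrays below 4 of 5 WT arrays. The difference of the effects, GSL30 minus KO, was -1.73 (SE 0.45, adjusted p = 0.0507) and was called in 10 of 28 alternative fits. Tibialis (-0.13, SE 0.29) and liver (0.15, SE 0.29, adjusted p = 0.913) showed no separation.

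Adipocyte markers ran the same way as Fasn in gastrocnemius. Of 7 measured markers, 6 were higher in KO gastrocnemius, with sums of 41599 to 48385 against 29127 to 45596 in WT, and all 7 were lower in GSL30 gastrocnemius, with sums of 32228 to 55302 against 44810 to 75970 in WT. With the mean adipocyte marker level as a covariate, the GSL30 difference of Fasn was -0.66 (SE 0.50, adjusted p = 0.851). Schwann cell and endothelial markers, given below with Scd2, also ran with Fasn in gastrocnemius. The part of adipocytes in the Fasn values was not tested beyond that fit, and that of the other cell types was not tested.

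**Figure D2:**
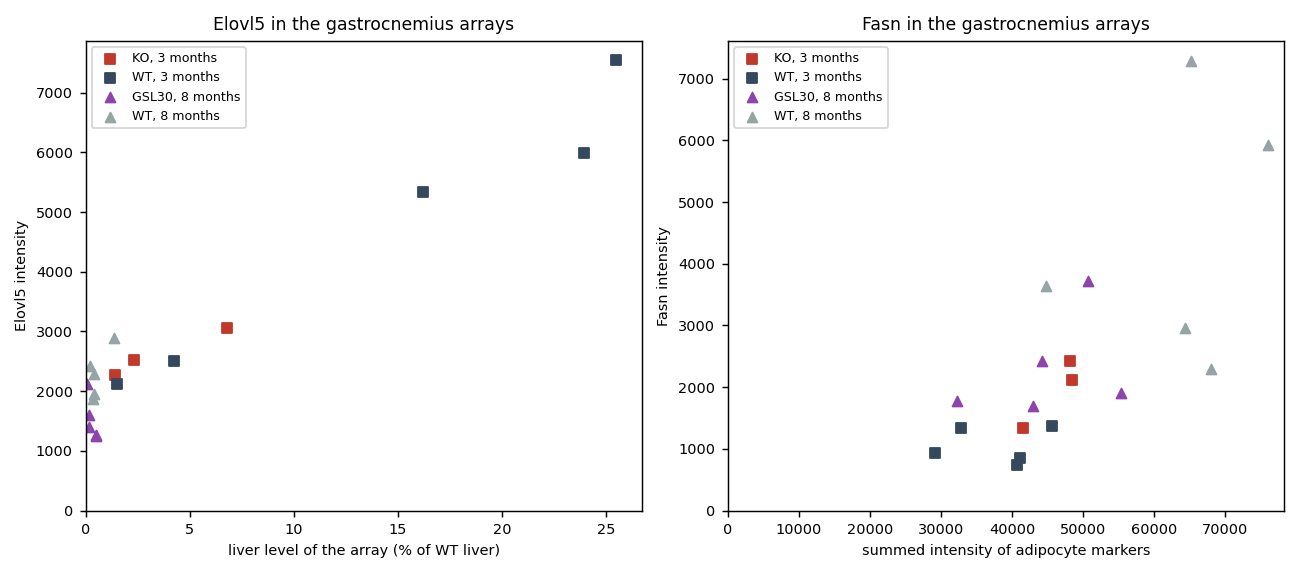
Left, Elovl5 intensity of each gastrocnemius array against its liver transcript level in percent of WT liver; right, Fasn intensity against the summed intensity of 7 adipocyte markers. The 3 WT arrays of highest liver level (16.19% to 25.46%) hold the 3 highest Elovl5 values, 5332 to 7555, and the highest Fasn values, 5920 and 7287, lie in WT arrays at 8 months with marker sums of 75970 and 65206. Within that WT group the order of Fasn did not follow the sums. The lowest Fasn value, 2288, lies at a sum of 68026, and 3633 lies at the lowest sum, 44810.

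The stearoyl-CoA desaturases put the first double bond into saturated chains. Scd1, the main isoform of liver and fat, read 5782, 6363, 5958 and 10591 in KO tibialis, against 6868, 9216, 16407 and 6095 in WT tibialis (-0.36, SE 0.31). The groups overlapped there as in KO gastrocnemius (25773 to 35809, against 21014 to 38165 in WT), GSL30 gastrocnemius (23140 to 42559, against 36299 to 49438 in WT; -0.35, SE 0.16, adjusted p = 0.230) and KO liver (28945 to 40502, against 31911 to 46281 in WT). In tibialis and 3-month gastrocnemius its second probe set had the opposite sign to the leading one, and it ranged from 746 to 6975 in KO gastrocnemius alone.

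On its leading probe set Scd2, the isoform of brain and many other tissues, differed from WT in opposite directions in the KO tibialis and the KO gastrocnemius. Its leading probe set read 1002, 1034, 1149 and 1028 in KO tibialis, against 1544, 1545, 1778 and 1374 in WT tibialis, lower in every KO array (-0.54, SE 0.11). In KO gastrocnemius it read 1006, 1030 and 1141, against 806, 554, 664, 758 and 792 in WT gastrocnemius at 3 months, higher in every KO array (0.55, SE 0.15). KO arrays of both muscles thus held the same narrow range, and the WT muscles lay on either side of it. The difference of these effects, gastrocnemius minus tibialis, was 1.09 (SE 0.18, adjusted p = 0.0635), and it was called in 7 of 26 alternative fits.

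GSL30 gastrocnemius read 495, 540, 501, 553 and 562 for Scd2, against 743, 834, 985, 747 and 820 in WT gastrocnemius at 8 months. Every GSL30 array lay below every WT array, and Scd2 fell by 0.59 on the log2 scale (SE 0.11, adjusted p = 0.0163). The call held in each of the 10 fits without an array and was lost with the adipocyte covariate (-0.50, adjusted p = 0.507), with the hepatocyte covariate (-0.57, adjusted p = 0.155) and without the 2 arrays of highest liver level (-0.60, adjusted p = 0.0625). Here too the difference stayed near the reported -0.59, at -0.60 to -0.50, and why the call was lost was not tested. GSL30 and KO effects in gastrocnemius differed by -1.13 (SE 0.17, adjusted p = 0.00149), a call kept in 27 of 28 alternative fits. Schwann cell markers, a cell type that makes myelin lipid, ran the same way as Scd2 in gastrocnemius, with both measured markers higher in KO (sums of 9855 to 11352 against 5954 to 8218 in WT) and both lower in GSL30 (6600 to 8867 against 9181 to 13534 in WT). In tibialis their sums overlapped, with 5000 to 6876 in KO and 5088 to 9697 in WT. Endothelial markers also ran with Scd2 in gastrocnemius, with 4 of 5 higher in KO (sums of 9613 to 11230 against 6493 to 8271 in WT) and all 5 lower in GSL30 (6258 to 7464 against 9488 to 11779 in WT), and against it in tibialis, with all 5 higher in KO (11463 to 13454 against 8050 to 9422 in WT). The adipocyte markers ran with Scd2 as well in gastrocnemius, with 6 of 7 higher in KO and all 7 lower in GSL30. In KO tibialis 4 of the 7 were lower and 3 higher. Their sums overlapped there, with 22304 to 23657 in KO and 17090 to 26043 in WT. The part of Schwann or endothelial cells in the Scd2 values, or in those of the other genes higher in KO muscle, was not tested. That of adipocytes was not tested beyond the covariate fit. The second Scd2 probe set overlapped between the groups in both KO muscles and in GSL30, where it read 363 to 699 against 516 to 899 in WT (-0.57, SE 0.19, adjusted p = 0.113). It gave -0.08 (SE 0.20) in KO tibialis and 0.27 (SE 0.29) in KO gastrocnemius. The third was too dim to be tested in GSL30 and in KO tibialis. In KO gastrocnemius the third gave -0.50 (SE 0.36), opposite in sign to the leading one, and the groups overlapped.

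Elongation adds carbons to existing chains. Elovl5, which lengthens polyunsaturated fatty acids and carries the E-box shown above, was lower in KO liver on both probe sets without passing the threshold. The leading one read 13154, 21383, 22183 and 15282 in KO liver, against 29643, 32368, 30049 and 32828 in WT liver (-0.83, SE 0.17, adjusted p = 0.256). The second read 10769, 15360, 14241 and 12846 in KO, against 23318, 24775, 19852 and 22850 in WT (-0.78, SE 0.14, adjusted p = 0.216). On both probe sets every KO array lay below every WT array.

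In gastrocnemius at 3 months the leading Elovl5 probe set read 3066, 2521 and 2278 in KO, against 5332, 5991, 2503, 7555 and 2116 in WT (-0.68, SE 0.41). The 3 high WT arrays were those of high liver level, while WT array 3 lay among the KO arrays and WT array 5 below them. Multiplying the liver level of each array by the WT liver mean gave 5055, 7478 and 7949 in those 3 WT arrays, against measured values of 5332, 5991 and 7555. In WT arrays 2 and 4 the product thus exceeded the measured value, and it is given for these 3 arrays only. The part of liver transcripts in the Elovl5 values was not tested beyond the fits that follow. The difference was 0.06 without the 4 arrays of a liver level over 5%, 0.06 with the adipocyte covariate and -0.11 with the hepatocyte covariate. In KO tibialis it read 2297, 2008, 2375 and 2194, against 2196, 1559, 2169 and 1493 in WT tibialis, with overlap (0.27, SE 0.15). GSL30 gastrocnemius read 1267, 1397, 1605, 2117 and 1242, against 1947, 2885, 2428, 1864 and 2280 in WT at 8 months. Except for array 4, the GSL30 arrays lay below all WT arrays, and the difference of -0.58 (SE 0.17, adjusted p = 0.0725) was -0.70 (adjusted p = 0.0262) without GSL30 array 4, -0.42 (adjusted p = 0.232) without the 2 arrays of highest liver level and -0.27 (adjusted p = 0.887) with the adipocyte covariate. The second probe set overlapped between GSL30 and WT as well (-0.73, SE 0.21, adjusted p = 0.0736), and its difference was -0.09 (adjusted p = 0.970) with the adipocyte covariate.

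Tecr, the reductase of the last step of very-long-chain elongation, was higher in KO muscle on both of its probe sets. The leading one read 32149, 32668, 33292 and 32731 in KO tibialis, against 23389, 21470, 18245 and 22660 in WT tibialis (0.61, SE 0.11). KO gastrocnemius read 29717, 32208 and 33617, against 19445, 17792, 22656, 20862 and 21627 in WT gastrocnemius at 3 months (0.64, SE 0.13). The second probe set read 12845 to 15318 in KO against 6878 to 9125 in WT tibialis (0.89, SE 0.12), and 15130 to 17517 in KO against 8140 to 9138 in WT gastrocnemius (0.86, SE 0.12).

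No such separation was seen for Tecr elsewhere. GSL30 gastrocnemius read 24331, 21862, 22147, 23779 and 24373 on the leading probe set, against 21098, 23393, 21031, 22952 and 20682 in WT at 8 months (0.09, SE 0.10, adjusted p = 0.612). KO liver read 17054, 11168, 9608 and 9963, against 12960, 11165, 13912 and 10658 in WT liver (-0.06, SE 0.19, adjusted p = 0.949). On the second probe set the KO effect in liver differed from that of both muscles by -1.07 (SE 0.23, adjusted p = 0.0291, kept in 25 of 33 alternative fits), and the GSL30 effect from the KO effect in gastrocnemius by -0.91 (SE 0.16, adjusted p = 0.00419). On the leading one the same contrasts gave -0.69 (SE 0.18, adjusted p = 0.0837) and -0.55 (SE 0.14, adjusted p = 0.0507).

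**Figure D3:**
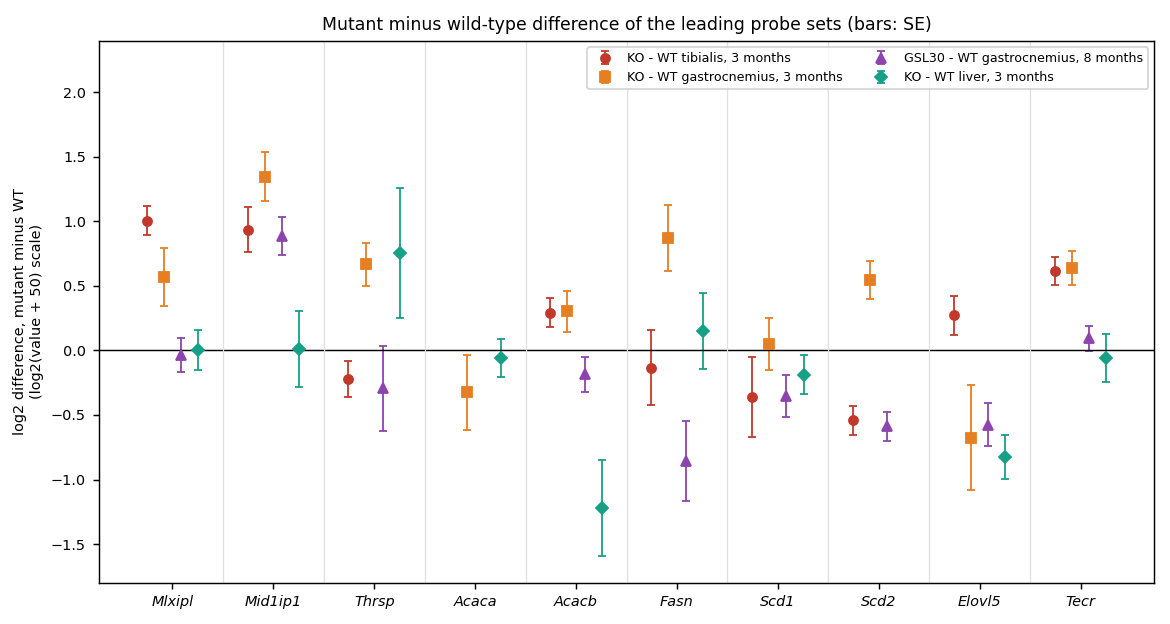
Log2 difference, mutant minus WT, of the leading probe set of each gene in the 4 mutant comparisons, with bars for the SE; a missing point is a probe set too dim to be tested. Mid1ip1 lies at 0.94, 1.35 and 0.89 in the 3 muscles and at 0.01 in liver, and Scd2 at -0.54, 0.55 and -0.59 in the muscles.

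Counted over probe sets, 4 of 14 tested were called in KO tibialis, all higher (Mlxipl, Mid1ip1 and both of Tecr), where 1.40% of all probe sets were called. In KO gastrocnemius 2 of 16 were called, both higher (Mid1ip1 and the second of Tecr), where 0.147% were called. Groups did not overlap for 6 members in KO tibialis (10.1% of all probe sets) and for 6 in KO gastrocnemius (9.98%). Since these contrasts chose the list, nothing is read from those counts. In GSL30 gastrocnemius 2 of 14 were called, Mid1ip1 higher and Scd2 lower, and the same 2 did not overlap, where 4.31% of all probe sets were called and 7.38% did not overlap. In KO liver limma called 0 of 13, and 4 of them had an unadjusted p under 0.05 (Acacb, both of Elovl5 and the second of Thrsp), where 0.00737% of all probe sets were called and 8.33% had an unadjusted p under 0.05. Both of Elovl5 did not overlap, where 5.17% of all probe sets did not.

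The median difference of the tested members was 0.28 in KO tibialis, 0.31 in KO gastrocnemius, -0.32 in GSL30 gastrocnemius and -0.06 in KO liver. The median of all probe sets lay between 0.02 and 0.05 in these comparisons. Among the differences of effects, 0 of 14 members were called for gastrocnemius minus tibialis (0.0147% of all probe sets), 2 of 15 for liver minus muscles (0.685%) and 2 of 14 for GSL30 minus KO (2.30%).

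WT muscle and WT liver held these genes at different levels, and the genes fell into those brighter in muscle and those brighter in liver. Of 15 tested probe sets, 13 were called between WT tibialis and WT liver (7 higher and 6 lower in tibialis), where 69.4% of all probe sets were called, and 13 between WT gastrocnemius and WT liver (7 higher and 6 lower), where 62.9% were. Tissue, array project and amount of RNA go together here and cannot be told apart.

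Brighter in muscle were Acacb, by 2.60 in tibialis (SE 0.17, 6.06-fold, adjusted p = 1.9e-07) and 2.79 in gastrocnemius (SE 0.18, adjusted p = 4.91e-07), and Scd2, by 3.10 (SE 0.12, 8.60-fold, adjusted p = 4.8e-09) and 2.02 (SE 0.14, adjusted p = 6.18e-07). Scd2 read 120 to 163 in WT liver, so its fold depends on a dim level. Tecr was higher in tibialis by 0.82 (SE 0.13, adjusted p = 0.000294) and in gastrocnemius by 0.75 (SE 0.12, adjusted p = 0.000393). Mid1ip1 was higher by 0.84 (SE 0.23, adjusted p = 0.00818) in tibialis and 0.71 (SE 0.23, adjusted p = 0.0217) in gastrocnemius, the second not called when arrays were set to a common median (0.41, adjusted p = 0.148). The second Thrsp probe set was higher in tibialis by 0.69 (SE 0.23, adjusted p = 0.0203) and in gastrocnemius by 0.59 (SE 0.20, adjusted p = 0.0227), while the leading one did not pass (0.46, adjusted p = 0.143, and 0.51, adjusted p = 0.0797).

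Brighter in liver were Elovl5, by a difference of -4.06 in tibialis (SE 0.15, adjusted p = 2.8e-09) and -2.88 in gastrocnemius (SE 0.35, adjusted p = 4.48e-05), and Mlxipl, by -0.76 (SE 0.14, adjusted p = 0.000684) and -0.90 (SE 0.22, adjusted p = 0.00411). Scd1 was lower in tibialis by -2.17 (SE 0.28, adjusted p = 4.9e-05), against -0.48 (SE 0.18, adjusted p = 0.0384) in gastrocnemius, where the call was kept in 9 of 18 alternative fits and -0.19 (adjusted p = 0.321) was found after quantile normalization. The second Scd1 probe set gave -4.93 in tibialis (SE 0.28, adjusted p = 8.3e-08). In gastrocnemius it gave -1.06 (SE 0.34, adjusted p = 0.02), called in 14 of 18 alternative fits. Fasn was lower in gastrocnemius (-0.88, SE 0.22, adjusted p = 0.00564) and did not pass in tibialis (-0.57, SE 0.30, adjusted p = 0.115). Acaca was lower in tibialis (-0.62, SE 0.18, adjusted p = 0.0106). The WT gastrocnemius arrays carried liver transcripts at 1.53% to 25.46%. The part of these in the gastrocnemius differences was not tested beyond a fit without the arrays of a liver level over 5%. Over all 18 alternative fits, that fit included, the Elovl5 difference in gastrocnemius ran from -3.73 to -2.64.

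**Figure D4:**
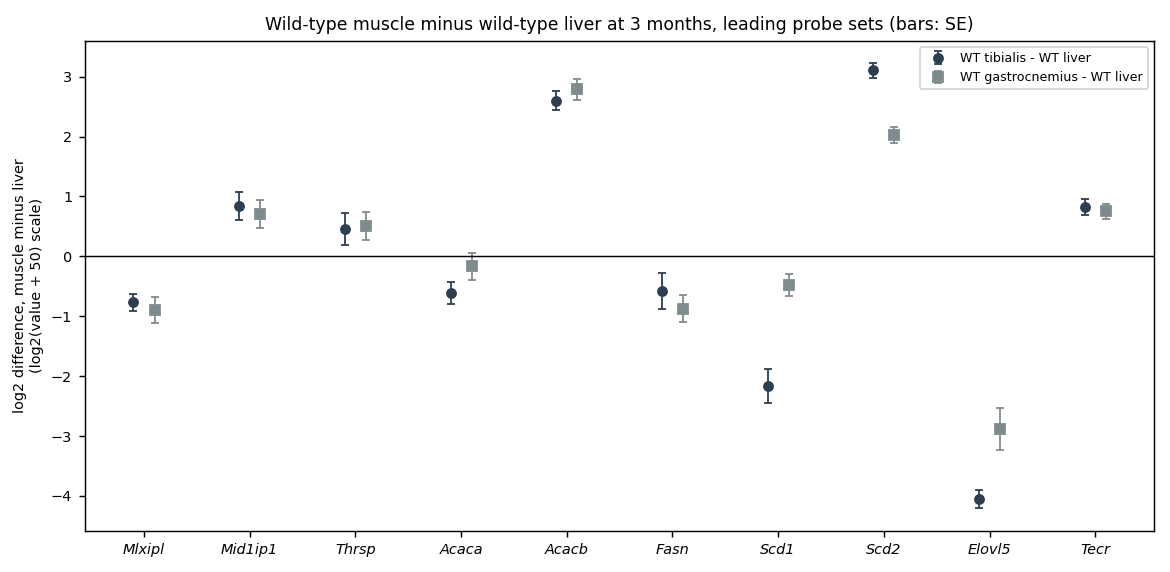
Log2 difference of WT tibialis (circles) and WT gastrocnemius (squares) minus WT liver for the leading probe set of each gene, with bars for the SE. Acacb and Scd2 lie 2.02 to 3.10 above 0, and Elovl5 lies at -4.06 for tibialis and -2.88 for gastrocnemius.

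Other genes of the pathway, read by 1 probe set each in 5 lists, rarely passed in the mutants. Of 6 measured genes that supply acetyl-CoA and NADPH, 1 was called in KO tibialis and the same 1 in KO gastrocnemius, Aacs, the cytosolic acetoacetyl-CoA synthetase, which was higher by 1.81 (SE 0.16, adjusted p = 0.00104) and 1.28 (SE 0.19, adjusted p = 0.0454). In all, limma called 1 of the 39 list genes tested in KO tibialis (2.56%) and 1 of 45 in KO gastrocnemius (2.22%), beside 1.40% and 0.147% of all probe sets. The lists were chosen with earlier results of these data known, so these p-values and shares are a description and nothing is read from them. Those tested in KO tibialis and not called included 11 of 12 measured partners and regulators, 7 of 11 carbohydrate-response targets and 9 of 14 other elongation and desaturation enzymes, the rest being too dim. Mlxip, the ChREBP paralog MondoA, did not overlap between groups in either KO muscle (0.47, SE 0.10 in tibialis and 0.39, SE 0.16 in gastrocnemius). Of all probe sets, 10.1% and 9.98% did not overlap there. The tested regulators had median differences of 0.03 and -0.07, and Mlxip was named after its values were seen. In GSL30 gastrocnemius 1 of the 40 list genes tested was called (2.5%, beside 4.31% of all probe sets), the triglyceride synthesis enzyme Dgat2, which fell by 0.56 on the log2 scale (-0.56, SE 0.13, adjusted p = 0.0354). In KO liver limma called 0 of the 44 list genes tested, 6 with an unadjusted p under 0.05 (8.33% of all probe sets). Of the 10 elongation and desaturation enzymes tested there, 9 had a difference below 0 (median -0.20, against 0.02 over all probe sets). The desaturase Fads2 (-0.60, SE 0.12, adjusted p = 0.256), the dehydratase Hacd1 (-0.53, SE 0.13, adjusted p = 0.332) and the elongase Elovl2 (-0.37, SE 0.14, adjusted p = 0.511) lay lower in every KO array, as Elovl5 did. Fads2, Hacd1 and Elovl2 were named after their values were seen, and 5.17% of all probe sets did not overlap between the liver groups.

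Between WT tibialis and WT liver 40 of the 45 list genes tested were called (88.9%, beside 69.4% of all probe sets). Of 10 elongation and desaturation enzymes tested, 1 was higher and 9 were lower in WT tibialis. The higher one was Hacd1, the muscle 3-hydroxyacyl-CoA dehydratase that acts just before Tecr in the cycle (1.83, SE 0.16, adjusted p = 2.42e-06), and the lower ones included Elovl2 (-6.55, SE 0.14, adjusted p = 4.86e-11). For the KO effect in liver minus that in both muscles, 2 of the 44 list genes tested were called (4.55%, beside 0.685% of all probe sets). They were Hacd1 (-0.98, SE 0.19, adjusted p = 0.0116) and 1 gene of acetyl-CoA and NADPH supply. For the GSL30 minus the KO effect in gastrocnemius 1 of 42 was called (2.38%, beside 2.30%), also of that supply list. Among the regulators 3 of 12 were higher in WT tibialis, led by Mlxip (3.57, SE 0.12, adjusted p = 1.17e-09), and 8 lower. Of the carbohydrate-response targets 2 were higher and 8 lower, among them Txnip, the thioredoxin-interacting protein (2.47, SE 0.21, adjusted p = 1.67e-06), and Slc2a2, the liver glucose transporter (-6.77, SE 0.12, adjusted p = 1.8e-11).

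The genes whose pattern was most like that of Mlxipl were read over the 26 muscle arrays, each as its difference from the mean of its own WT group, among 13576 probe sets. The 5 highest Pearson correlations were those of Ifi30 (0.891), Plpp1 (0.877), Slc38a10 (0.853), Gbe1 (0.849), the glycogen branching enzyme, and Abcc5 (0.845). Among the members they were 0.821 and 0.818 for the Tecr probe sets, 0.617 for Mid1ip1 and 0.587 for Acacb, whereas those of the leading probe sets of Thrsp (-0.04) and Scd2 (-0.02) lay near 0. Mlxipl, Mid1ip1 and Tecr were selected on their KO minus WT differences in muscle, so the likeness among them follows in part from that choice. The arrays of a group share genotype and muscle, so these values describe the pattern and carry no p.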

How the data were processed

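Gene expression was measured in whole muscle and liver of mice on Affymetrix arrays. Per the labels' protocols, RNA was extracted with TRIzol and RNeasy columns and hybridised by the standard Affymetrix protocol. The deposited values are intensities, 1 per probe set and array, on a linear scale with no value below 0. For the summarising software, no name was given. From the values themselves, the authors' scaling brought the trimmed mean of every array near 1000. Array medians were 296.4 to 440.3, and correlations between replicates of a group were 0.902 to 0.98. The number of arrays limits the precision.

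Groups followed the labels. Where nothing states that arrays came from separate animals, p-values measure only the spread between these arrays, which may be technical. Of the 22690 probe sets, 64 controls and those below the 40th percentile of mean brightness were removed from each fit. The log2(value + 50) values of the groups compared were fitted with limma 3.58.1 (lmFit and eBayes, R 4.3.3), and p-values were adjusted by Benjamini-Hochberg over all 13576 probe sets tested. Genes were named from the platform annotation, which gives 1 symbol to 20393 probe sets, several to 691 and none to 1606. The tests were tried on simulated data first.

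From the 5 pathway lists, genes called in a comparison were to be named, at most 4 a list by smallest p, beside the 5 genes most like Mlxipl. Mlxip, Fads2, Hacd1 and Elovl2 in the KO comparisons, and Hacd1 and Txnip between tissues, were named after their values were seen. The members and lists were chosen with earlier results of these data known. Alternatives were other normalizations, pseudocounts, filters and variance models, marker covariates, and fits without single arrays or without those of high liver level.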

Additional observations from a re-analysis of the deposited data

Results flagged for a closer look

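In 112 groups of 4 or 5 arrays, 1 array stood apart from the rest of its group in 6, where chance alone gives about 1 in 20 groups. Mid1ip1 read 1635 in WT tibialis array 3, against 2365 to 2497 in the other WT tibialis arrays. Acaca read 303.3 in WT tibialis array 4, against 149 to 168, and 287.9 in WT liver array 4, against 322.5 to 327.6. Scd1 read 10591 in KO tibialis array 4, against 5782 to 6363. The second Scd2 probe set read 53.1 in WT liver array 3, against 114 to 129. The second Elovl5 probe set read 2696 in GSL30 gastrocnemius array 4, against 1174 to 1321.

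The same contrast differed between groups for 4 values, tested as a difference of effects. The KO effect in liver minus the mean of both muscles was -1.52 for Acacb and -1.07 for the second Tecr probe set. The GSL30 effect minus the KO effect in gastrocnemius was -1.13 for Scd2 and -0.91 for the second Tecr probe set. All 4 contain the knockout muscle effects that chose the list, so none is independent evidence. No cause of these differences was tested.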

How the results depend on the processing

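Of 1002 alternative values of the leading probe sets, over all fits run, 953 stayed on the same side of the threshold or, in KO muscle, within 1 SD, 20 tested values changed sign, 18 lost the call, 7 gained it and 4 in KO gastrocnemius moved further. For single genes the filters, the fit of all arrays, the variance model, the covariates and the liver-level arrays were added after seeing the data. Member counts stayed within 1.5 times the reported count in 139 of 194. With all arrays set to a common median, called members numbered 2 in KO tibialis, 0 in KO gastrocnemius, 1 for liver minus muscles and 4 for GSL30 minus KO. That scaling moved the median of all probe sets to -0.18 for gastrocnemius minus liver, against 0.12 as reported, and to 0.01 for tibialis minus liver, against 0.18. With no filter the counts were 2 in KO tibialis, 0 in KO gastrocnemius and 0 for liver minus muscles. With the filter at the 60th percentile they were 4 in GSL30, 1 for gastrocnemius minus tibialis and 4 for GSL30 minus KO. All 34 arrays in 1 fit gave 4 in KO gastrocnemius, 1 in KO liver, 1 for gastrocnemius minus tibialis and 4 for liver minus muscles. The adipocyte covariate gave 0 in KO gastrocnemius, 0 in GSL30 and 0 for GSL30 minus KO, and the hepatocyte covariate 1 in KO gastrocnemius and 0 in GSL30. Without the arrays of high liver level there were 0 in KO gastrocnemius, 0 in GSL30, 1 for liver minus muscles and 1 for GSL30 minus KO. A pseudocount of 1 gave 1 for liver minus muscles, and a pseudocount of 200, like trended robust eBayes, gave 1 for gastrocnemius minus tibialis and 4 for GSL30 minus KO. Quantile normalization gave 1 for gastrocnemius minus tibialis. The cause of these shifts was not tested.

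Leaving out 1 array at a time gave 2 to 5 called members in KO tibialis, 0 to 2 in KO gastrocnemius, 0 in KO liver, 2 to 4 in GSL30, 11 to 14 and 11 to 13 for tibialis and gastrocnemius minus liver, 0 to 1 for gastrocnemius minus tibialis, 0 to 4 for liver minus muscles and 2 to 4 for GSL30 minus KO. Over all alternative fits, those with other settings included, the calls among all probe sets ranged more widely. They were 63 to 321 in KO tibialis (190 reported), 4 to 306 in KO gastrocnemius (20), 1 to 41 in KO liver (1) and 0 to 1070 in GSL30 (585). For the differences of effects they were 0 to 7 for gastrocnemius minus tibialis (2) and 17 to 668 for GSL30 minus KO (312).

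Among the leading probe sets in the 4 mutant and 2 tissue comparisons, signs turned only for uncalled values. The largest turn was that of Elovl5 in KO gastrocnemius, -0.68 as reported and 0.06 both without the arrays of high liver level and with the adipocyte covariate. That covariate also turned Thrsp in GSL30 (-0.29 as reported, 0.19) and Fasn in KO tibialis (-0.13 as reported, 0.07, and 0.17 without WT array 3), and Scd1 in KO gastrocnemius (0.05 as reported) ran from -0.10 to 0.16. In KO liver the turns were Mlxipl (-0.05 at a common median, -0.08 to 0.11 with an array left out), Mid1ip1 (-0.01 after quantile normalization, -0.04 at a common median, -0.26 to 0.18 with an array left out), Acaca (-0.13 to 0.08), Fasn (-0.14 to 0.34) and Tecr (-0.24 to 0.03). Mlxipl ran from -0.10 to 0.06 in GSL30 with an array left out and was 0.01 with the hepatocyte covariate, and Acaca from -0.30 to 0.02 for gastrocnemius minus liver. Dim probe sets, among them Acaca in muscle and Scd2 in liver, limit what could be tested. No paired analysis was possible because the labels give no replicate number that is shared between mutant and WT samples of one comparison, and the array numbers restart in each project.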
